A study of Mus musculus with 6 samples.

Results

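The ZFP36 family and the proteins that share or compete for its binding sites were described here by the levels of their own transcripts in mouse embryonic stem cells. The 10 genes were Zfp36, Zfp36l1, Zfp36l2, Zfp36l3, Elavl1, Elavl2, Khsrp, Tia1, Tial1 and Rc3h1. They were found by symbol in the deposited table, and all 10 were among its 18312 genes. The study sought the mRNAs bound by Brf1 (gene Zfp36l1) and Brf2 (gene Zfp36l2) in wild-type E14 cells, a line of 129/Ola background cultured with serum and LIF. Its labels describe 6 libraries in 3 groups of 2, all from cytoplasmic extracts or total RNA of this line. These were Brf immunoprecipitate (RNA recovered with an antibody that recognises both Brf1 and Brf2), IgG control (RNA recovered with non-specific rabbit IgG) and total RNA. The labels do not say whether libraries of a group came from separate cultures.

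The table holds 1 profile of 22625281 counts, and nothing in it names a library or group. It was assigned to none, so no comparison between groups and no test was made. Each value below comes from this 1 profile, without replicates. A level may be that of Brf immunoprecipitate, IgG control or total RNA, or of a pool of libraries. It therefore measures neither binding nor expression in the cells for certain. Intervals cover counting error only. The cell type on the labels was checked against fixed markers. All 6 embryonic stem cell markers had at least 1 FPKM (the count scaled to effective length and to the total count), with a summed level of 1637 FPKM, against 56.0% of all genes at that threshold. Of the other cell types, 3 of 5 fibroblast markers did (summed level 155), 0 of 3 primitive endoderm markers (1.04) and 3 of 3 neural markers (45.4). The primitive endoderm marker Gata6 was not found. The fibroblast sum came mostly from Tagln at 125 FPKM, followed by Vim at 24.96 and Thy1 at 3.74. Col1a1 at 0.902 and Col1a2 at 0.543 were below 1 FPKM. With the length of the transcript model in place of the effective length, Col1a1 had 1.87. On that length 4 of 5 fibroblast markers reached 1 FPKM, against 58.2% of all genes. The counts for the other marker lists were the same on both lengths.

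AU-rich elements are stretches of U and A in the 3′ untranslated regions of many short-lived mRNAs. ZFP36 proteins bind the UAUUUAU core through a pair of CCCH zinc fingers and recruit the CCR4-NOT deadenylase, which shortens the poly(A) tail and starts decay. Other proteins read the same or overlapping elements. The Hu protein Elavl1 (HuR) protects bound mRNAs, Khsrp brings in decay enzymes, and Tia1 and Tial1 silence translation. Rc3h1 (Roquin-1) also recruits CCR4-NOT, but through stem-loops. Members of the ZFP36 family are known to bind sites in their own mRNAs.

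Most of the members' own 3′ untranslated regions carried that core. Sequences were read from GENCODE M21 transcripts (build GRCm38), taking the longest region of each gene, on the sense strand only and counting overlapping matches. Regions were found for 9 members; the annotated Zfp36l3 transcript has 20 bases past its stop codon, below the minimum of 50. The core TATTTAT was present in 8 of 9 members, against 29.5% of 16262 genes with a region. The members' regions were longer than most, with a median of 2477 nt against 1061 nt for all genes. The members' counts are therefore also set beside regions within 20% of the same length. Among such regions the core was present in 19.9% for Zfp36, 38.1% for Zfp36l1 and 37.9% for Zfp36l2. For Elavl1, Elavl2 and Rc3h1 it was present in 62.2%, 47.1% and 78.7%. The shares for Khsrp, Tia1 and Tial1 are given below. The longer form TTATTTATT was present in 5 members, against 8.15% of all genes. Among regions of like length, it was present in 4.19% for Zfp36, 10.04% for Zfp36l1, 10.01% for Zfp36l2, 18.1% for Elavl1 and 28.1% for Rc3h1. Of its 12 copies in the members, 8 were in Elavl1. One window from each of the 5 members is shown first, because this nonamer is the extended site known for ZFP36 proteins. Capitals mark TATTTAT.
Zfp36: atgacgacttTATTTATtgtattaaga
Zfp36l1: actgttggatTATTTATtttagaaatt
Zfp36l2: ctatttaactTATTTATtatcttgtga
Elavl1: aaaatTATTTATTTATTTATTTATtttta
Rc3h1: ctttactcatTATTTATtgagatgagg

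These windows lie in GRCm38 at chr7:28376952-28376978 for Zfp36, chr12:80108168-80108194 for Zfp36l1, chr17:84184915-84184941 for Zfp36l2, chr8:4285782-4285810 for Elavl1 and chr1:160970044-160970070 for Rc3h1. All are in the last exon, on the minus strand for the first 4 and on the plus strand for Rc3h1. The other sites of the 2 transcripts whose proteins the antibody recognises are shown because they lack the extended form.
Zfp36l1 at 1150 nt past the stop codon: tatcaaaacgTATTTATtgccaaacta
Zfp36l1 at 1191 nt: attttgttcaTATTTATcgggatgaca
Zfp36l2 at 870 nt: gtccatactgTATTTATcgagtatgat
Zfp36l2 at 1056 nt: ttgtatgtaaTATTTATttcattaatt

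Zfp36, Zfp36l1 and Zfp36l2 each had 3 copies of the core, and in each of them 1 copy was part of the nonamer. In Zfp36 they began 575, 590 and 615 nt past the stop codon, within 47 bases of a region of 774 nt. Of 1860 regions of like length, 1.34% had 3 or more copies. In Zfp36l1 (region of 1835 nt) the copies began at 1150, 1191 and 1405 nt, and in Zfp36l2 (1822 nt) at 822, 870 and 1056 nt. As many copies occurred in 4.06% of regions of the length of Zfp36l1 and in 4.09% of those of the length of Zfp36l2. The pentamer ATTTA, which also lies inside every longer match, was present 9 times in Zfp36l1, 5 times in Zfp36l2 and 3 times in Zfp36. As many occurred in 5.64% of regions of the length of Zfp36l1, in 30.4% for Zfp36l2 and in 19.8% for Zfp36.

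Elavl1 had the most copies, 8, all between 3795 and 3847 nt past the stop codon in a region of 4218 nt. The window shown above holds 4 overlapping copies. Among 1221 regions of like length, 0.328% had 8 or more. Its paralog Elavl2 had 3 copies, a number reached by 7.16% of regions of its length, and no nonamer. It had 15 copies of ATTTA, reached by 1.30% of those regions. Its region also had the highest A and T content of the 9, at 66.6% against a median of 56.3% over all genes. Motif number moves with base composition, and the part of composition in these counts was not tested. Khsrp stood at the other end, with 49.4% A and T, a single ATTTA and no TATTTAT. Of regions of its length, 86.3% had at least 1 ATTTA and 35.4% had TATTTAT.

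The paralogs Tia1 and Tial1 had 1 copy each, and in both it lay close behind the coding sequence, at 111 nt in Tia1 and at 93 nt in Tial1. The windows are shown for comparison of their flanks (chr6:86430468-86430494, plus strand, and chr7:128442424-128442450, minus strand, GRCm38).
Tia1: agatacaatgTATTTATttaaaagatt
Tial1: aaaatgaaaaTATTTATtttaaaaatt
At least 1 copy was present in 54.2% of regions as long as that of Tia1 and in 50.4% of those as long as that of Tial1. Rc3h1 had 2 copies in 7181 nt, a number reached by 46.5% of like regions. A match is a description of the letters in these windows and does not show that a protein binds there.

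**Figure D1:**
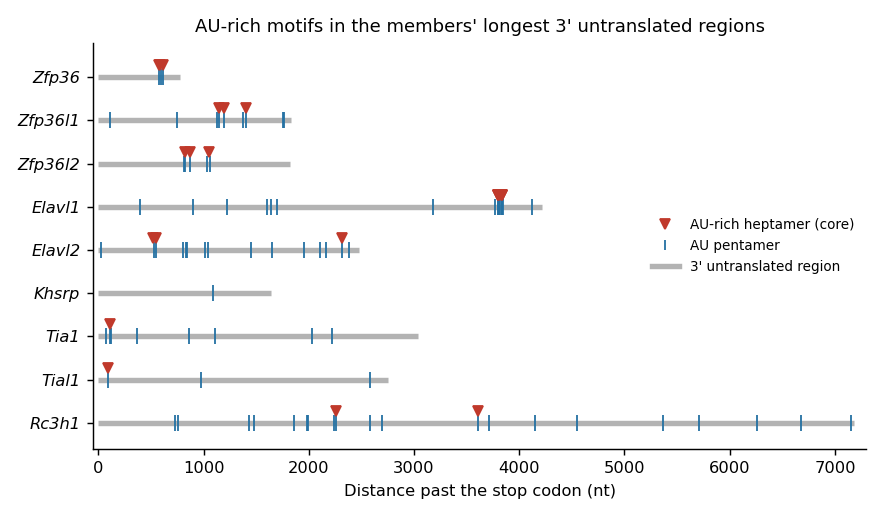
Positions of AU-rich motifs in the longest annotated 3′ untranslated region of 9 members; the horizontal axis is the distance past the stop codon in nt, grey bars are the regions, blue ticks the pentamer ATTTA and red triangles the core TATTTAT. The 8 copies in Elavl1 lie between 3795 and 3847 nt, the copies in Tia1 and Tial1 at 111 and 93 nt, and Khsrp has none.

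Of the 10 members, 9 had at least 1 FPKM, against 56.0% of all genes. The same 9 had at least 5 FPKM, against 38.3% of all genes. On the model length all 10 members had at least 1 FPKM, against 58.2% of all genes. The members' median was 21.5 FPKM and the median of all genes 1.94. Together the 10 transcripts held 20238 counts, 0.0894% of the total. Their levels ran from Zfp36l1 through Khsrp, Tial1, Elavl1, Zfp36l2, Elavl2, Zfp36, Tia1 and Rc3h1 down to Zfp36l3. Of the 9 pairs of neighbours in this order, 2 had a ratio whose exact conditional 95% interval included 1. These were Khsrp over Tial1 (1.01, interval 0.957 to 1.06) and Zfp36l2 over Elavl2 (1.06, interval 0.992 to 1.14). The bounds printed beside FPKM are those of the authors' table and span 2 Poisson standard errors either side for the members.

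**Figure D2:**
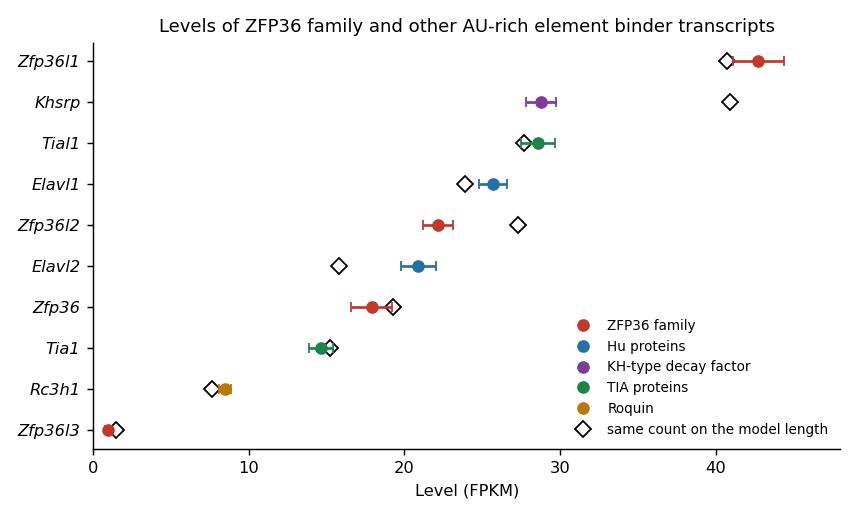
Level of each member in FPKM (filled circles, with the bounds of the authors' table as bars) and the level computed from the same count on the model length (open diamonds); colours give the role. Zfp36l1 is highest at 42.7 FPKM and Zfp36l3 lowest at 0.961, and Khsrp moves furthest to the right on the model length, to 40.9.

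Within the ZFP36 family, Zfp36l1 (Brf1) was the most abundant transcript, at 42.7 FPKM (41.1 to 44.3) from 2749 counts. This was above 91.9% of all genes. Zfp36l2 (Brf2) had 22.2 FPKM (21.2 to 23.1) from 2180 counts, above 84.6% of genes. The level of Zfp36l1 was 1.93 times that of Zfp36l2 (interval 1.82 to 2.04), and 1.49 times on the model length (interval 1.41 to 1.58). The size of the difference depends on the length because the models differ: Zfp36l1 has 2984 nt with an effective length of 2844, and Zfp36l2 has 3532 nt with an effective length of 4348.

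The annotation places a long noncoding RNA, Gm26669, on the opposite strand of Zfp36l1, sharing 1672 exonic bases with it. Of the 36-base stretches of the Zfp36l1 transcript, 54.3% also occur in that RNA. The corresponding share with an opposite-strand transcript was 2.00% for Zfp36l2 and 3.74% for Zfp36. The table records no strand, so reads from Zfp36l1 and from Gm26669 cannot be told apart, and the part of Gm26669 in the 2749 counts was not tested. Gm26669 itself was not analysed here.

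Zfp36 (tristetraprolin), the founding member and an immediate early gene in many cell types, had 17.9 FPKM (16.6 to 19.2) from 768 counts. Its level was 0.419 times that of Zfp36l1 (interval 0.386 to 0.454) and 0.807 times that of Zfp36l2 (interval 0.743 to 0.877). It was therefore the lowest of the 3 widely expressed members, on a model of 1765 nt, the shortest of the 10. Zfp36l3, a rodent gene on chromosome X known from placenta and yolk sac, had 0.961 FPKM (0.754 to 1.17) from 86 counts. Its bounds include the threshold of 1 FPKM, and on the model length it had 1.45. The Zfp36l3 counts are well above the 3 counts that a reading of 0 would allow, which is 0.0335 FPKM for this gene. None of its 36-base stretches occurred in another annotated gene; the annotated transcript, of 2347 nt, is shorter than the table's model of 2613 nt, and the origin of the counts was not tested. By share of the family's summed 83.7 FPKM, Zfp36l1 held 51.0%, Zfp36l2 26.5%, Zfp36 21.4% and Zfp36l3 1.15%. The 2 transcripts whose proteins the antibody recognises together held 77.5% of the family's summed level (76.7% on the model length).

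Among the Hu proteins, Elavl1, which is found in most tissues, had 25.7 FPKM (24.8 to 26.6) from 3259 counts. Elavl2 (HuB), best known from neurons and germ cells, had 20.9 FPKM (19.7 to 22.0) from 1372 counts. The level of Elavl1 was 1.23 times that of Elavl2 (interval 1.15 to 1.31), and 1.51 times on the model length (interval 1.42 to 1.61). The neuronal Hu proteins of the same family were low. Elavl3 (HuC) had 1.81 FPKM (1.60 to 2.02) from 293 counts, and Elavl4 (HuD) had 0.822 FPKM (0.621 to 1.02) from 67 counts. The bounds of Elavl2 lie above those of both. Neural markers were measured beside them, at 22.9 FPKM for the tubulin Tubb3, 20.1 for the filament protein Nes and 2.38 for the transcription factor Pax6. Their part in the Hu levels was not tested. Elavl1 was lower than Zfp36l1, at 0.601 times its level (interval 0.571 to 0.632).

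Khsrp, a KH-domain protein that promotes decay of AU-rich mRNAs and also maturation of some microRNAs, had 28.8 FPKM (27.8 to 29.7). It had 3704 counts, the most of the 10. Its effective length was 1.42 times its model length, and on the model length it had 40.9 FPKM. There the ratio to Zfp36l1 was 1.01, with an interval of 0.957 to 1.06 that includes 1, whereas on the effective length it was 0.673 times that level (interval 0.641 to 0.708). Zfp36l1 was thus higher than Khsrp on the effective length only. Of the 36-base stretches of Khsrp, 5.91% occur in another gene. The largest shares were with Gm8602 (3.22%) and Gm13042 (2.03%), both annotated as processed pseudogenes.

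The TIA proteins, which assemble stress granules, differed from each other. Tial1 (TIAR) had 28.6 FPKM (27.5 to 29.7) from 2688 counts, and Tia1 had 14.6 FPKM (13.9 to 15.4) from 1532 counts. Tial1 was 1.95 times the level of Tia1 (interval 1.83 to 2.08), and 1.82 times on the model length (interval 1.71 to 1.94). These were the only members whose level on the model length (27.7 for Tial1 and 15.2 for Tia1) stayed within the FPKM bounds. Of the Tia1 stretches, 7.16% occur in Gm44790, annotated on the same strand.

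Rc3h1 had 8.46 FPKM (8.07 to 8.85), the lowest level but one, although its 1900 counts exceeded those of Zfp36, Elavl2 and Tia1. Its model is the longest of the 10, at 11011 nt, and it was above 69.8% of all genes. Its paralog Rc3h2 (Roquin-2), which acts redundantly with it in mouse T cells, had 13.2 FPKM from 2159 counts. The level of Rc3h1 was 0.642 times that of Rc3h2 (interval 0.604 to 0.684).

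Summed by role, the 4 ZFP36 family members had 83.7 FPKM, the 2 Hu members 46.5, the 2 TIA proteins 43.2, Khsrp 28.8 and Rc3h1 8.46. The family held 39.7% of the members' summed level, and 40.3% on the model length. The Hu share was 22.1% on the effective length and 18.1% on the model length, and that of Khsrp 13.7% and 18.6%. The first place of the family and the last place of Rc3h1 did not depend on the length. These sums are over unequal numbers of genes, so their order is not an order of levels per gene.

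**Figure D3:**
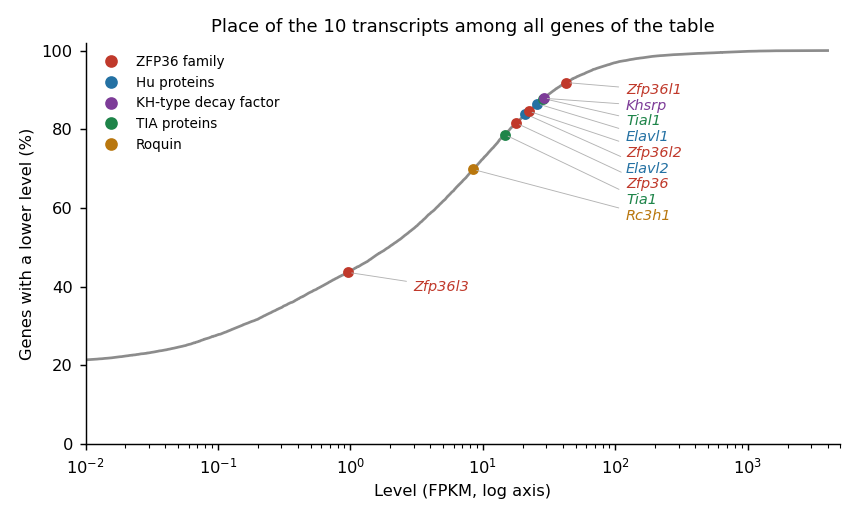
Place of the 10 members among all genes of the table; the horizontal axis is the level in FPKM on a log scale, the vertical axis the percentage of genes with a lower level, and the grey line all 18312 genes. Members other than Zfp36l3 lie between 69.8% (Rc3h1) and 91.9% (Zfp36l1), and Zfp36l3 lies at 43.6%.

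The length behind FPKM mattered for these genes. The effective length was above the model length in 5 members and below it in 5, from 0.757 times in Elavl2 to 1.51 times in Zfp36l3. Over all genes the median was 1.27, so levels on the model length were generally higher, by 0.41 on the log2 scale at the median gene with counts. The members' median was 21.6 on the model length, against 21.5 on the effective length. Relative to all genes, 8 members stood lower on the model length and 2 higher. Zfp36l1 was above 89.0% of genes there, against 91.9% on the effective length. The 2 that stood higher were Khsrp, above 89.1% against 87.9%, and Zfp36l3, above 44.7% against 43.6%. Of the 45 pairs of members, 3 changed order between the lengths. These were Zfp36l1 and Khsrp, Elavl1 and Zfp36l2, and Elavl2 and Zfp36. On the model length, 3 neighbours had a ratio whose interval included 1. They were Khsrp over Zfp36l1, Tial1 over Zfp36l2 (1.01, interval 0.959 to 1.07) and Elavl2 over Tia1 (1.04, interval 0.965 to 1.12).

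Transcripts of other binders of AU-rich elements and regulators of stability were mostly present, and many were more abundant. Of 40 listed, 39 were measured (Mex3c was not found), and 37 of these reached 1 FPKM, against 56.0% of all genes. The 10 members' median was 21.5 FPKM, against 54.5 for this list, and 21 of the 39 were above Zfp36l1. Hnrnpa1, a nuclear splicing regulator that also binds AU-rich RNA, was highest at 638 FPKM. It was followed by the poly(A)-binding protein Pabpc1 at 562, the cold shock domain protein Ybx1 at 545 and Hnrnpab, a relative of the AU-rich element binder AUF1, at 531. The lowest were the Regnase relatives Zc3h12d at 0.347 and Zc3h12b at 0.121.

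The kinases, phosphatase and 14-3-3 proteins that control ZFP36 proteins were all detected. The p38 substrate kinase Mapkapk2 phosphorylates ZFP36, 14-3-3 proteins then hold it in an inactive form, and the phosphatase PP2A reverses this. Of 18 measured, 18 reached 1 FPKM, against 56.0% of all genes. Their median was 54.2, against 1.94 for all genes. The 14-3-3 genes Ywhae, Ywhaq and Ywhaz had 563, 281 and 173 FPKM, and Ppp2ca, a catalytic subunit of PP2A, had 143. The stress kinases Mapk8 at 10.7 and Mapk11 at 4.67 were lowest.

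Every measured transcript of CCR4-NOT and decay partners was present. Of 20 listed symbols, 17 were measured, and all 17 reached 1 FPKM, against 56.0% of all genes. No value was found for Cnot11 and Dcp2. None was found under the symbol Cnot9 either, but the same gene was measured under its other listed symbol, Rqcd1. The members' median was 21.5 FPKM, against 19.3 for this list, of which 2 genes were above Zfp36l1. This order turned on the model length, with medians of 21.6 for the members and 29.5 for the list, and 5 genes of the list above Zfp36l1. The scaffold Cnot1, which ZFP36 proteins contact directly, had 59.5 FPKM, and Rqcd1 (CNOT9) had 44.9. The deadenylase Cnot8 had 39.1 and the structural subunit Cnot2 had 37.3. The deadenylase Cnot6l at 6.89 and the decapping cofactor Dcp1b at 1.38 were lowest.

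**Figure D4:**
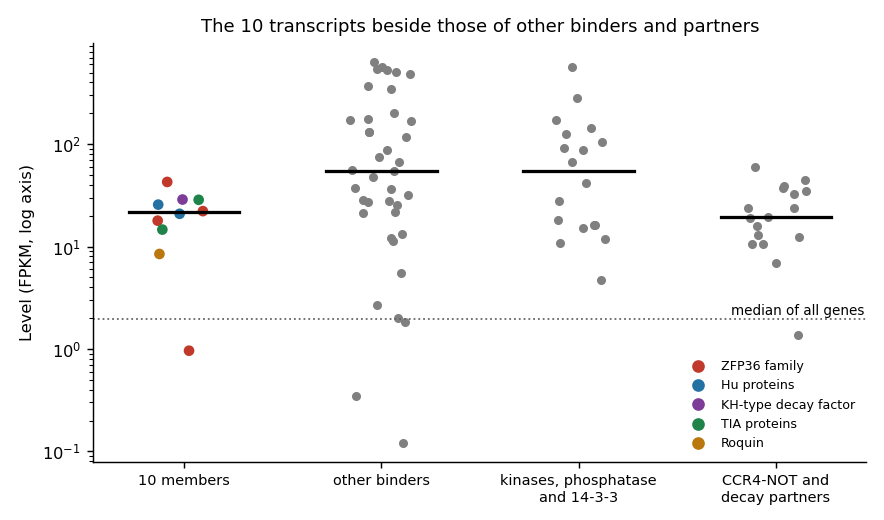
Levels in FPKM on a log axis of the 10 members (coloured by role) and of 3 lists of other genes (grey points); black lines are medians and the dotted line is the median of all genes. Medians are 21.5 for the members, 54.5 for other binders, 54.2 for kinases, phosphatase and 14-3-3 proteins, and 19.3 for CCR4-NOT and decay partners, against 1.94 for all genes.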

How the data were processed

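One table was used, with 1 transcript model per gene symbol. The submitters' processing notes name eXpress 1.1.1, Bowtie 1.1.2, CASAVA 1.8.2 and mm9, without roles or settings. The authors deposited total and unique counts and estimated counts per gene, per the file headers, and the 3 are equal in every gene row. FPKM was deposited by the authors with its bounds, and equals count over effective length and total count within 0.0173%. The 1 row that names no gene holds the total and was left out. No column names a library, so no group was inferred and no test was run.

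Levels on the model length were computed from the same counts. Ratios of levels carry exact conditional (Clopper-Pearson) 95% intervals on the 2 counts. 3′ untranslated regions came from protein-coding transcripts of GENCODE M21 (GRCm38) outside chr18, for 16262 genes (88.8%). Overlaps came from the same release. The transcripts need not belong to the table's model. For Zfp36 the transcript used for the motifs is 1025 nt longer than the model, and the nearest in length is 700 nt longer. Protein sequences were not used here.

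The members and lists were chosen with earlier results of these data known. The genes named from each list are its 4 highest and 2 lowest; Rc3h2 was added as the paralog of Rc3h1. With 1 profile, no gene can be named by likeness of pattern. Computation ran in scipy 1.17.1, pandas 2.3.3 and numpy 2.4.6 under Python 3.11.15, with plots from matplotlib 3.10.9.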

Additional observations from a re-analysis of the deposited data

How the results depend on the processing

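No paired analysis was possible because the columns carry no replicate number or group. Using the model length, members with at least 1 FPKM numbered 10 in place of 9, and 8 of 10 levels left their bounds: Zfp36 19.2, Zfp36l1 40.7, Zfp36l2 27.3, Zfp36l3 1.45, Elavl1 23.9, Elavl2 15.8, Khsrp 40.9 and Rc3h1 7.63 FPKM. The ratio Zfp36l1 over Zfp36l2 became 1.49 and Zfp36 over Zfp36l1 became 0.472, each in the same direction, while Elavl1 over Zfp36l1 stayed within its interval. The median of CCR4-NOT and decay partners became 29.5, above that of the members. These shifts follow from the lengths.

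Leaving the 100 genes with the most counts out of the total multiplied every level by 1.25. It gave 22.3 FPKM for Zfp36, 53.4 for Zfp36l1, 27.7 for Zfp36l2, 1.20 for Zfp36l3, 32.1 for Elavl1, 26.1 for Elavl2, 35.9 for Khsrp, 18.3 for Tia1, 35.7 for Tial1 and 10.6 for Rc3h1. Estimated counts changed nothing, being equal to the total counts. At a threshold of 5 FPKM, 0 of Elavl3 and Elavl4 passed, against 1 at 1 FPKM; the other list counts stayed within 1.5 times under every setting tried. With TTATTTATT, 5 members had a site in place of 8, and with ATTTA 9 did. The longer word is rarer by construction. For Zfp36l3 the 86 counts set the precision.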

Other observations

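Exons of other annotated genes overlapped those of 6 members, with Zfp36l1 and Tia1 given above. On the opposite strand, Ccl25, a chemokine gene, shared 204 exonic bases with Elavl1, Gm44710 shared 125 with Zfp36, AC132455.1 shared 105 with Zfp36l2 and Gm17949 shared 63 with Khsrp. Ccl25 had 1.72 FPKM from 57 counts. Elavl2, Tial1, Rc3h1 and Zfp36l3 shared no exonic base with another annotated gene, and none of their 36-base stretches occurred in one. Zfp36l1 shared 5.41% of its stretches with its processed pseudogene Zfp36l1-ps.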
